A study of Mus musculus with 3 samples.

Results

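The 10 elastic fibre genes described here are Eln, Fbn1, Fbn2, Fbln1, Fbln2, Fbln5, Emilin1, Mfap4, Mfap5 and Efemp2, chosen as a named list among the 36167 features of the count tables. Their counts were read in nuclei of aortic valve structures taken from mouse pups at postnatal day 1. The 3 pools, each of 22 to 24 aortic roots, form 1 group, and all carry the strain label B6.Cg-Scx tm1.1(EGFP)Skom, an EGFP allele of the scleraxis gene whose zygosity the labels do not give. Transcripts of single nuclei were counted with the RNA side of a 10x Genomics Multiome kit, and what is compared here is one class of nuclei with another in the same pools. The pools are mixtures of many pups, so differences between single animals cannot be seen. The p-values rest on how much differences between groups of nuclei vary from pool to pool, not on the spread of the pools themselves.

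Elastic fibres give the wall of the aorta and the ventricular side of the valve leaflets their recoil. Tropoelastin, the product of Eln, is laid on a scaffold of microfibrils built from fibrillins and is then crosslinked by lysyl oxidases. Fibulins, microfibril-associated proteins and emilins bind both parts, and most elastic fibres of the mouse are laid down around birth and early postnatal life.

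In RefSeq's promoter table for GRCm38.p6, 6 of the 10 genes matched by symbol. The following 3 windows of 250 bases before an annotated start are shown because Fbn1, Fbln2 and Fbln5 peaked in 3 different classes, and capitals mark the GC box GGGCGG, searched on both strands, so that its reverse complement CCGCCC is also in capitals.
Fbn1, chr2:125506439-125506688, minus strand: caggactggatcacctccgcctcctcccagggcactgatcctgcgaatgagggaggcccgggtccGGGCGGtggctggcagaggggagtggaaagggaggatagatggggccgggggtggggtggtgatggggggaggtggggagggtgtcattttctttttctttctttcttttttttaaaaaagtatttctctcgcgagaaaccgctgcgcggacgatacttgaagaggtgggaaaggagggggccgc
Fbln2, chr6:91212514-91212763, plus strand: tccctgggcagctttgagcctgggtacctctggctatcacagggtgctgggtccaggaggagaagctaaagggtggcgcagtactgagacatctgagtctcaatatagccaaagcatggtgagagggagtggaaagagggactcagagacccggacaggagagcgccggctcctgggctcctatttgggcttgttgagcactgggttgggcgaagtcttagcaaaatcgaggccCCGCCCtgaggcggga
Fbln5, chr12:101819120-101819369, minus strand, the first of 2 annotated starts: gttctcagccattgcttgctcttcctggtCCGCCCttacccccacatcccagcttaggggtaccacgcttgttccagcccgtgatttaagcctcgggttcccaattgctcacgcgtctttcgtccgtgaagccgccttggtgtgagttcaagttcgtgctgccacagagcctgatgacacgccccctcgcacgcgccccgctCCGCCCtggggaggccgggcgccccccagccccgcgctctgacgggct
The window of Fbn1 held 1 GC box, that of Fbln2 1 and that of Fbln5 2, while the window before the second start of Fbln5 held 0, and 32.7% of all 32851 windows of this length held at least 1. Neither TATAAA nor the AP-1 motif TGANTCA, each searched on both strands, was in these 3 windows, and they were in 12.4% and 6.75% of all windows. Bases just after the start were found in GENCODE transcripts of the same gene for Fbn1 and Fbln2 but for neither start of Fbln5. The motif counts describe letters only, and which start the nuclei used was not measured.

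Of 21140 deposited nuclei, 13182 were analysed, 6473 in pool 1, 3098 in pool 2 and 3611 in pool 3, with median counts of 4283, 4756 and 3340 unique molecular identifiers (UMIs). Clusters were named from marker genes, and the 10 genes and their partners were kept out of the clustering and were no markers, so their levels did not shape the classes. The classes were 2821 smooth muscle-like, 2736 endothelial-like, 1890 cardiomyocyte-like, 1506 valve interstitial-like (VIC-like), 1191 fibroblast-like and 366 mesothelial-like nuclei. Another 4 small classes, of 73 to 261 nuclei, also entered the fit, and 1969 nuclei in 4 clusters stayed unnamed. Pools 1 and 2 shared 33 cell barcodes among analysed nuclei, pools 1 and 3 shared 29, and pools 2 and 3 shared 16. Levels are counts per 1e6 UMIs (CPM) of a pool and class, and fold changes are log2 values from edgeR's quasi-likelihood test with the pool as a block. A difference is called at a Benjamini-Hochberg adjusted p under 0.05 over 14288 genes. CPM of nuclear RNA depends on gene length, so levels are compared between classes and not between genes.

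**Figure D1:**
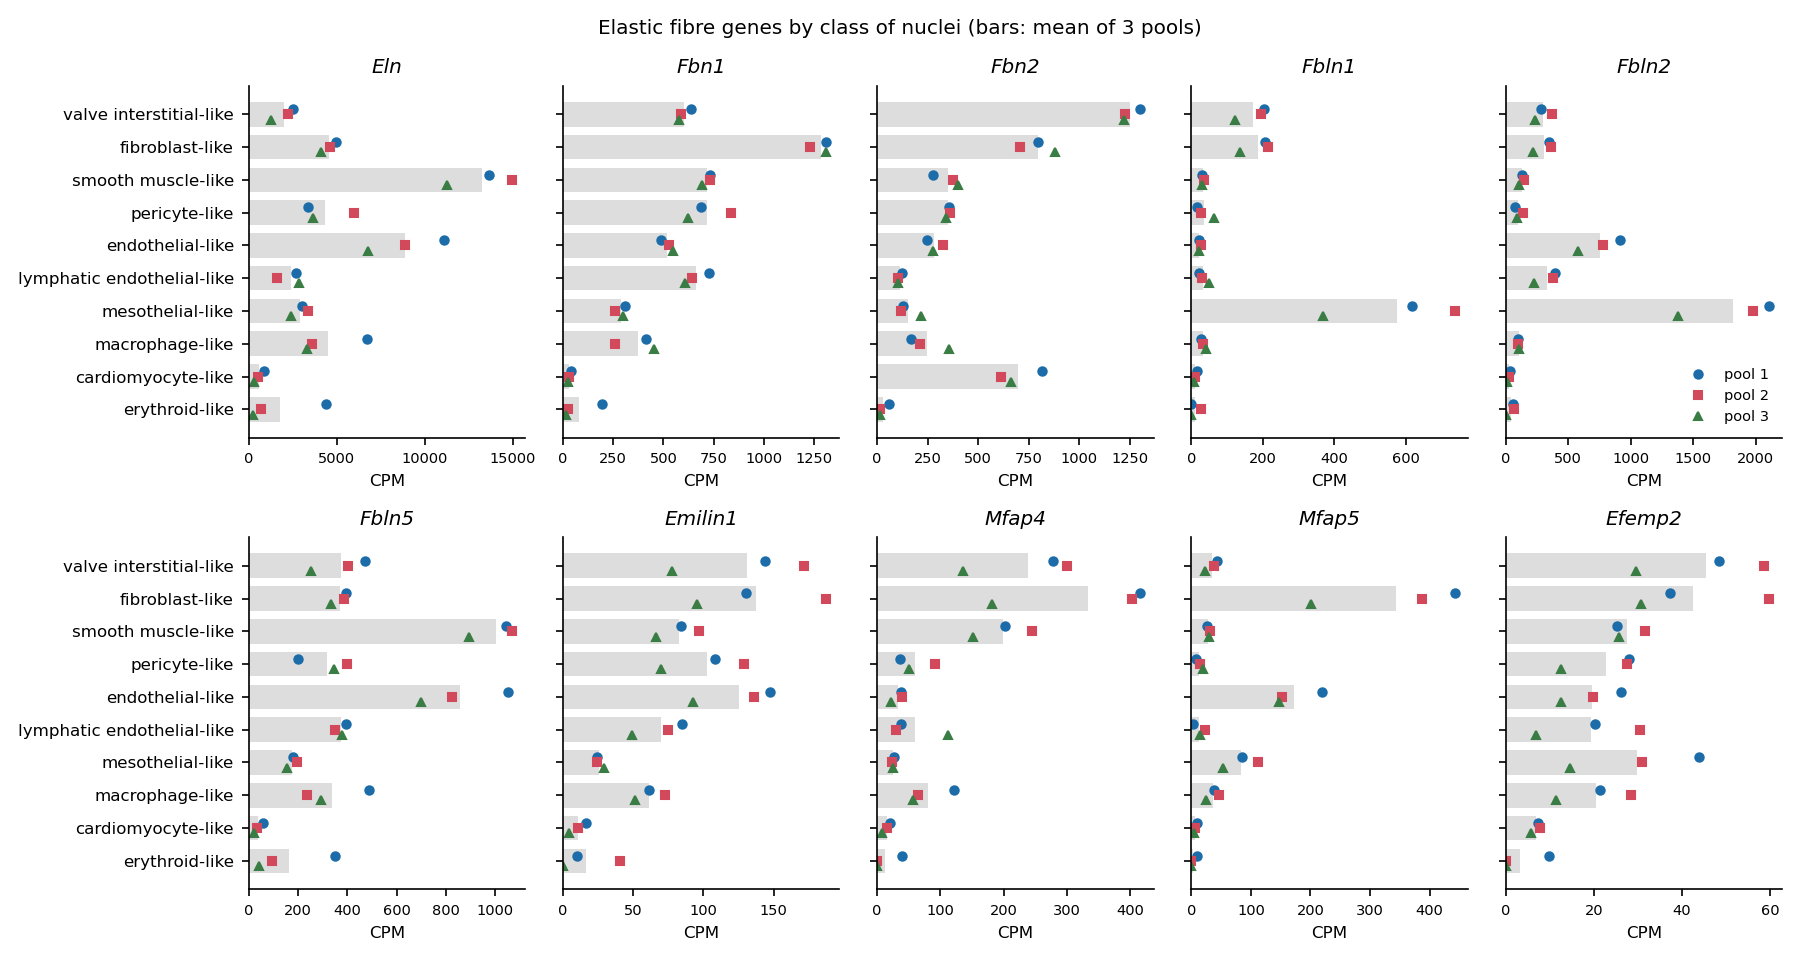
CPM of each gene (one panel per gene, x axes differ) in the 10 classes of nuclei, with points for the 3 pools and grey bars for their mean. Eln and Fbln5 are highest in smooth muscle-like and endothelial-like nuclei, Fbn2 in VIC-like nuclei, Fbn1, Mfap4 and Mfap5 in fibroblast-like nuclei, and Fbln1 and Fbln2 in mesothelial-like nuclei.

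Eln, the gene of tropoelastin, was highest in smooth muscle-like nuclei. There it was at 13633 CPM in pool 1, 14939 CPM in pool 2 and 11230 CPM in pool 3, or 13268 CPM ± 1881 (SD, n = 3). Endothelial-like nuclei followed with 11077, 8853 and 6763 CPM, and the ranges of these classes did not overlap. Both lay above fibroblast-like nuclei, which had 4960, 4597 and 4134 CPM. VIC-like nuclei were low, at 2516, 2262 and 1279 CPM, and cardiomyocyte-like nuclei had the lowest mean, with 863, 527 and 307 CPM. The cardiomyocyte-like mean of 566 CPM became 1186 CPM with nuclei of at least 500 UMIs, 1957 CPM without the mitochondrial limit, 2028 CPM at clustering resolution 0.5 and 2045 CPM with doublets kept, where VIC-like nuclei were at means of 1919, 2316, 2017 and 2628 CPM. Against the mean of the other classes, Eln was higher by 2.24 ± 0.22 (SE) in smooth muscle-like nuclei (edgeR adjusted p = 3.73e-11) and by 1.40 ± 0.24 in endothelial-like nuclei (edgeR adjusted p = 5.99e-06). It was called lower in VIC-like nuclei at -1.001 ± 0.297 (edgeR adjusted p = 0.00899), and this call was lost without pool 3 (adjusted p = 0.0726) and without the pool block (adjusted p = 0.0878). Of all Eln UMIs, 29.2% ± 7.1 came from endothelial-like, 27.8% ± 7.6 from smooth muscle-like and 27.4% ± 7.0 from unnamed nuclei, 3 sources whose order differed between pools. VIC-like nuclei, 11.7% of the nuclei, gave 2.8% ± 0.8.

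Free RNA also enters droplets. Erythroid-like nuclei are red cell precursors that should lack Eln. In these nuclei Eln was at 4392, 678 and 246 CPM, from 449, 50 and 18 UMIs in 25, 26 and 22 nuclei. There 61.1%, 87.7% and 85.3% of all UMIs came from 6 erythroid marker genes, which lowers the CPM of every other gene, and per 1e6 of the remaining UMIs Eln was at 11280, 5532 and 1678, above the VIC-like CPM of the same pool in each of the 3 pools. In cardiomyocyte-like nuclei Eln was at 4.20% ± 1.89 of its smooth muscle-like level, beside 8 smooth muscle markers that ran from 1.37% for Myh11 to 54.1% for Smtn and, far above these, 409% for Myocd. In macrophage-like nuclei Eln was at 34.2% ± 13.4, or 4532 CPM ± 1909, and the 8 markers were at 22.6% (Myh11) to 52.6% (Myocd). The part of free RNA in the levels of any class was not tested.

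Fbn1 and Fbn2 encode the fibrillins, the main structural proteins of microfibrils, and Fbn2 is best known from development. Fbn1 was highest in fibroblast-like nuclei, with 1309, 1230 and 1309 CPM, above every other class. Smooth muscle-like nuclei had 732, 733 and 691 CPM, pericyte-like nuclei 689, 838 and 621 CPM, and these 2 classes were not apart. VIC-like nuclei, at 635, 590 and 578 CPM, were in the middle of the order, and cardiomyocyte-like nuclei had the lowest mean, 32.7 CPM ± 7.93. That mean was 61.4 CPM with nuclei of at least 500 UMIs and 92.9 to 104.8 CPM without the mitochondrial limit, at clustering resolution 0.5 or with doublets kept. Fbn1 was higher by 1.78 ± 0.13 in fibroblast-like nuclei (edgeR adjusted p = 1.18e-14) and lower in cardiomyocyte-like nuclei at -3.64 ± 0.21 (edgeR adjusted p = 4.87e-19).

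Fbn2 had another order. VIC-like nuclei led with 1302, 1225 and 1220 CPM, no pool overlapping fibroblast-like nuclei at 795, 707 and 882 CPM. Cardiomyocyte-like nuclei came next with 813, 612 and 662 CPM, overlapping the fibroblast-like range. Smooth muscle-like nuclei had 352 CPM ± 64.0 and endothelial-like nuclei 284 CPM ± 39.5, with overlapping ranges but smooth muscle-like nuclei higher within each of the 3 pools. Fbn2 was higher by 2.18 ± 0.13 in VIC-like nuclei (edgeR adjusted p = 1.33e-17), by 1.67 ± 0.14 in cardiomyocyte-like nuclei (edgeR adjusted p = 5.33e-14) and by 1.43 ± 0.14 in fibroblast-like nuclei (edgeR adjusted p = 5.78e-11). After thinning every nucleus to 1000 UMIs, 57.2% ± 2.5 of VIC-like nuclei held an Fbn2 UMI (83.6% unthinned), against 10.6% ± 4.3 of macrophage-like nuclei (27.7% unthinned), with median depths of 3620 and 3370 UMIs. Macrophage-like and cardiomyocyte-like nuclei were set beside the shares as classes with no known elastic fibre synthesis. In cardiomyocyte-like nuclei the share with an Fbn2 UMI was 40.5% (74.0% unthinned). Whether either class measures the background was not tested.

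The share of Fbn2 among fibrillin UMIs, a ratio within each library, also differed between classes. It was 67.2%, 67.5% and 67.9% in the 3 pools of VIC-like nuclei, with an SD of 0.32 percentage points. In cardiomyocyte-like nuclei it was 95.2%, 95.1% and 96.3%, with Fbn1 at 41.3, 31.3 and 25.6 CPM there. The mean of 95.5% became 91.7% with nuclei of at least 500 UMIs, 87.2% without the mitochondrial limit, 86.7% at clustering resolution 0.5 and 86.5% with doublets kept, and that of VIC-like nuclei lay between 65.7% and 67.6% under these settings. Fibroblast-like nuclei were at 37.8%, 36.5% and 40.3%, endothelial-like nuclei at 33.8%, 38.3% and 33.6%, and smooth muscle-like nuclei at 27.6%, 34.0% and 36.6%. The ranges of these 3 classes overlapped and lay below VIC-like nuclei in every pool. Within each pool the share was higher in fibroblast-like than in smooth muscle-like nuclei. Of the endothelial-like Fbn2 UMIs, 1013 of 1828, 898 of 1435 and 378 of 765 came from the Dlgap2-led cluster of 251 nuclei. Its mean share was 81.4%, and the other endothelial-like clusters had mean shares of 7.9% to 29.8%. The endothelial-like values thus mix unlike clusters, and the class share without the Dlgap2-led cluster was not computed. Lymphatic endothelial-like nuclei had the lowest share of the classes, 14.7%, 14.1% and 14.7%, from 491 Fbn1 and 83 Fbn2 UMIs. With 3 pools against 3, a permutation test of such shares cannot give a p under 0.1, so none is given.

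**Figure D2:**
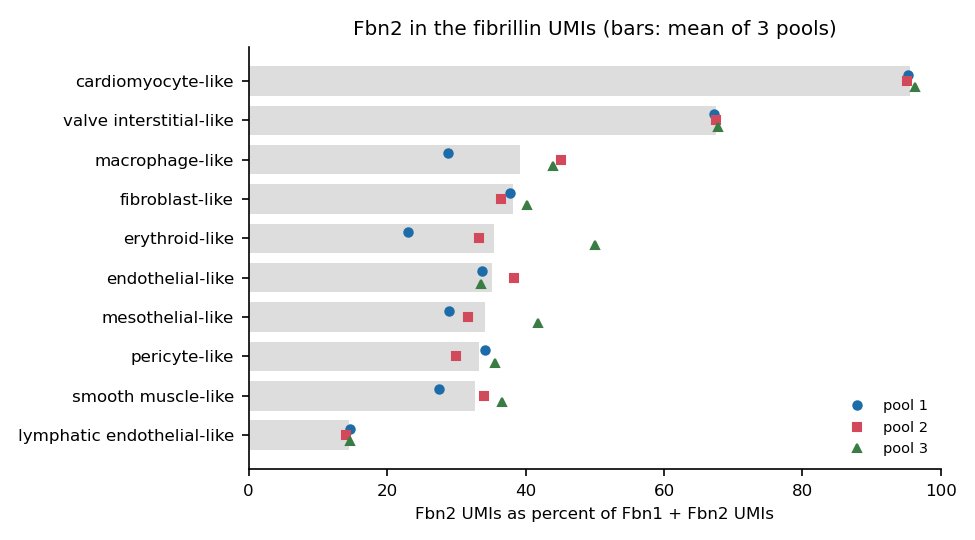
Fbn2 UMIs as a percent of Fbn1 and Fbn2 UMIs together (x axis) in each class, with points for the 3 pools and bars for their mean. Cardiomyocyte-like nuclei (95.5%) and VIC-like nuclei (67.5%) stand above the other classes; erythroid-like nuclei spread from 23.1% to 50.0% on 23 Fbn1 and 8 Fbn2 UMIs.

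The 4 fibulins of the list include Fbln5 and Efemp2 (fibulin-4), both needed for elastic fibre assembly, and Fbln1 and Fbln2, which bind elastin and basement membranes. Fbln5 followed Eln. It was at 1042, 1068 and 894 CPM in smooth muscle-like nuclei and at 1054, 823 and 698 CPM in endothelial-like nuclei, 2 classes whose ranges overlapped. All other classes were below them, with VIC-like nuclei at 376 CPM ± 113 and fibroblast-like nuclei at 373 CPM ± 33.8. Fbln5 was higher by 1.91 ± 0.14 in smooth muscle-like (edgeR adjusted p = 1.26e-14) and by 1.48 ± 0.15 in endothelial-like nuclei (edgeR adjusted p = 2.54e-11), and it was lower in mesothelial-like nuclei at -0.82 ± 0.19 (edgeR adjusted p = 0.000511).

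Fbln2 and Fbln1 both peaked in mesothelial-like nuclei, the covering layer of the outer surface. Fbln2 was at 2106, 1980 and 1380 CPM there, above endothelial-like nuclei at 916, 781 and 576 CPM, which in turn were above all the rest. Fbln1 was at 617, 736 and 369 CPM in mesothelial-like nuclei, and fibroblast-like (186 CPM ± 43.3) and VIC-like nuclei (173 CPM ± 44.7) came next with overlapping ranges, fibroblast-like nuclei being higher within each pool. Fbln1 was called higher by 2.04 ± 0.14 in fibroblast-like (edgeR adjusted p = 2.22e-15) and by 1.95 ± 0.14 in VIC-like nuclei (edgeR adjusted p = 5.85e-15). The log2 differences in mesothelial-like nuclei were 3.64 ± 0.11 for Fbln2 (edgeR adjusted p = 1.55e-28) and 4.11 ± 0.12 for Fbln1 (edgeR adjusted p = 3.53e-30). In endothelial-like nuclei these fibulins went opposite ways, Fbln2 higher by 2.01 ± 0.12 (edgeR adjusted p = 8.56e-18) and Fbln1 lower at -1.33 ± 0.34 (edgeR adjusted p = 0.00207), the latter not called without pool 2. Mesothelial-like nuclei were only 2.7% of nuclei but gave 35.3% ± 13.4 of Fbln1 and 25.6% ± 7.8 of Fbln2 UMIs, and they had the deepest counts, a median of 9898.5 UMIs.

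Efemp2 had few counts, 1755 UMIs in all. VIC-like nuclei were at 48.4, 58.5 and 29.5 CPM and fibroblast-like nuclei at 37.4, 59.7 and 30.6 CPM, and no class was apart from its neighbour in the order. Efemp2 was called higher in VIC-like (1.12 ± 0.20, edgeR adjusted p = 1.6e-05), fibroblast-like (0.97 ± 0.21, edgeR adjusted p = 0.000367) and mesothelial-like nuclei (0.88 ± 0.23, edgeR adjusted p = 0.00136). The last call was lost without pool 1 (adjusted p = 0.228).

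Mfap4 and Mfap5 encode microfibril-associated proteins, Mfap4 binding elastin and Mfap5 binding fibrillin. Mfap4 was at 416, 403 and 182 CPM in fibroblast-like, 278, 300 and 136 CPM in VIC-like and 202, 244 and 151 CPM in smooth muscle-like nuclei. These 3 ranges overlapped one after the other, though fibroblast-like nuclei were above both other classes within each pool, and all 3 classes were called higher, by 2.49 ± 0.13, 1.97 ± 0.14 and 1.86 ± 0.14 (edgeR adjusted p = 1.51e-19, 1.5e-15 and 8.46e-15). Endothelial-like nuclei, at 33.0 CPM ± 9.20, were called lower at -1.18 ± 0.26 (edgeR adjusted p = 0.00039), but not without pool 1.

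Mfap5 was split differently. It was at 442, 388 and 200 CPM in fibroblast-like and 220, 152 and 147 CPM in endothelial-like nuclei, and although the ranges overlapped, fibroblast-like nuclei were higher within each of the 3 pools. Smooth muscle-like nuclei, at 28.8 CPM ± 2.16, and VIC-like nuclei, at 34.4 CPM ± 10.2, lay below both in every pool. The differences were 3.63 ± 0.14 in fibroblast-like (edgeR adjusted p = 1.74e-24), 2.58 ± 0.15 in endothelial-like (edgeR adjusted p = 4.3e-19) and 1.63 ± 0.21 in mesothelial-like nuclei (edgeR adjusted p = 9.64e-09). In smooth muscle-like nuclei it was not called (-0.25 ± 0.32), and it was called higher by 0.65 (adjusted p = 0.0259) when the unnamed cluster led by Igfbp2, at 126 CPM ± 4.10, was counted with them.

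Emilin1, an elastin- and fibulin-binding glycoprotein of the fibre surface, was at like levels in 3 classes. It was at 130, 187 and 95.6 CPM in fibroblast-like, 143, 172 and 77.5 CPM in VIC-like and 147, 136 and 92.7 CPM in endothelial-like nuclei, with overlapping ranges. It was called higher in these 3 classes, by 1.17 ± 0.13, 1.12 ± 0.12 and 1.08 ± 0.11 (edgeR adjusted p = 5.82e-10, 7.69e-10 and 1.19e-10), and lower in mesothelial-like nuclei at -1.32 ± 0.24 (edgeR adjusted p = 1.04e-05).

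Read by class, VIC-like nuclei had 7 of the 10 genes higher and 1 lower, where 27.0% of all tested genes were called, 2862 of 14288 higher and 1001 lower. Smooth muscle-like nuclei had 5 higher and 1 lower, where 34.6% of all genes were called (26.3% higher and 8.36% lower). Endothelial-like nuclei had 5 and 2, where 30.1% were called (23.7% and 6.47%), and fibroblast-like nuclei 8 and 0, where 22.7% were called (18.3% and 4.40%). Cardiomyocyte-like nuclei had 1 higher, Fbn2, and 9 lower, where 49.5% of all genes were called (32.9% and 16.6%), and mesothelial-like nuclei 4 and 4, where 45.5% were called (33.0% and 12.6%). In VIC-like nuclei the calls also took in Fbn1 (0.58 ± 0.15, edgeR adjusted p = 0.00207) and Fbln2 (0.50 ± 0.14, edgeR adjusted p = 0.00702), and Fbln5 (0.14 ± 0.17) and Mfap5 (-0.01 ± 0.35) were not called. The call on Fbn1 was lost with doublets kept (adjusted p = 0.0604), at clustering resolution 0.5 (adjusted p = 0.114) and without the mitochondrial limit (adjusted p = 0.181). The call on Fbln2 was lost under 6 of 15 alternatives, among them those without pool 2 (adjusted p = 0.0824), without pool 3 (adjusted p = 0.0849) and without the pool block (adjusted p = 0.0825). In smooth muscle-like nuclei Fbn1 (1.03 ± 0.14, edgeR adjusted p = 9.6e-08) and Emilin1 (0.54 ± 0.13, edgeR adjusted p = 0.00122) were also higher and Fbln2 (-0.65 ± 0.16, edgeR adjusted p = 0.0012) was lower, and the calls on Emilin1 and Fbln2 were each lost under 2 of the 15 alternatives. Fbn2 (0.29 ± 0.16), Fbln1 (-0.67 ± 0.28), Mfap5 and Efemp2 (0.46 ± 0.22) were not called there. With only the classes of at least 100 nuclei per pool in the fit, smooth muscle-like nuclei had 4 genes higher and 4 lower: Fbn2 (-0.93, adjusted p = 2.62e-08), Fbln1 (-0.81, adjusted p = 2.43e-06) and Mfap5 (-1.18, adjusted p = 1.21e-06) were then called lower, and Emilin1 was not called (adjusted p = 0.117). Without pool 1, Fbn2 was called higher there (0.56, adjusted p = 0.0305), so these alternatives differ in sign. Fbln1 was called lower under 5 of the 15 alternatives and Efemp2 higher under 6.

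In endothelial-like nuclei the genes not called were Fbn1 (0.36 ± 0.15), Fbn2 (-0.19 ± 0.16) and Efemp2 (-0.18 ± 0.25). With only the classes of at least 100 nuclei per pool, Fbn1 was called higher (0.36, adjusted p = 0.000113) and Fbn2 (-1.44, adjusted p = 5.71e-12) and Efemp2 (-0.40, adjusted p = 0.0183) lower, which made 6 higher and 4 lower. Over all 15 alternatives Fbn1 was called higher under 4, Fbn2 lower under 2 and Efemp2 lower under 1. In that fit Mfap5 was also called lower in VIC-like nuclei (-0.86, adjusted p = 0.000161) and Eln higher in fibroblast-like nuclei (0.32, adjusted p = 0.0248). In fibroblast-like nuclei Fbln2 was higher by 0.54 ± 0.14 (edgeR adjusted p = 0.00387), a call lost under 4 of the 15 alternatives, and Eln (0.36 ± 0.26) and Fbln5 (0.14 ± 0.17) were not called. In mesothelial-like nuclei the lower genes were Fbn2 (-1.03 ± 0.19, edgeR adjusted p = 1.75e-05), Fbln5, Emilin1 and Mfap4 (-1.42 ± 0.31, edgeR adjusted p = 0.000142), the last not called without pool 1 (-0.49). Eln (-0.12 ± 0.28) and Fbn1 (-0.36 ± 0.17) were not called there, and Fbn1 was called lower under 8 of 14 alternatives. The 9 lower values in cardiomyocyte-like nuclei ran from -1.45 for Efemp2 to -3.64 for Fbn1, and those of Mfap4, Mfap5 and Efemp2 were not called without pool 1 and lost the call under 3 to 4 alternatives in all, and that of Fbln1 was not called without pool 2.

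The median log2 difference of the 10 genes was 1.30 in fibroblast-like nuclei, where that of all genes was 0.26, and -2.25 in cardiomyocyte-like nuclei, where that of all genes was 0.21. It was 0.85 in VIC-like, 0.72 in endothelial-like, 0.50 in smooth muscle-like and -0.24 in mesothelial-like nuclei, where all genes had 0.25, 0.27, 0.29 and 0.30. With total-UMI scaling the median of all genes moved by -0.25 in cardiomyocyte-like and by 0.21 in fibroblast-like nuclei, and no call on the 10 genes changed direction. Of all genes called, 74.1% were higher in VIC-like nuclei (88.8% with total-UMI scaling), 78.5% in endothelial-like (89.9%, and 66.8% with RLE scaling), 80.7% in fibroblast-like (93.7%), 66.5% in cardiomyocyte-like (54.9%) and 72.4% in mesothelial-like nuclei (59.1% with RLE scaling). The erythroid-like class, with 1 to 11 UMIs for 7 of the genes, enters each mean of the other classes, and the fit without it made 1 fewer and 3 more calls over these comparisons and the 4 below.

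**Figure D3:**
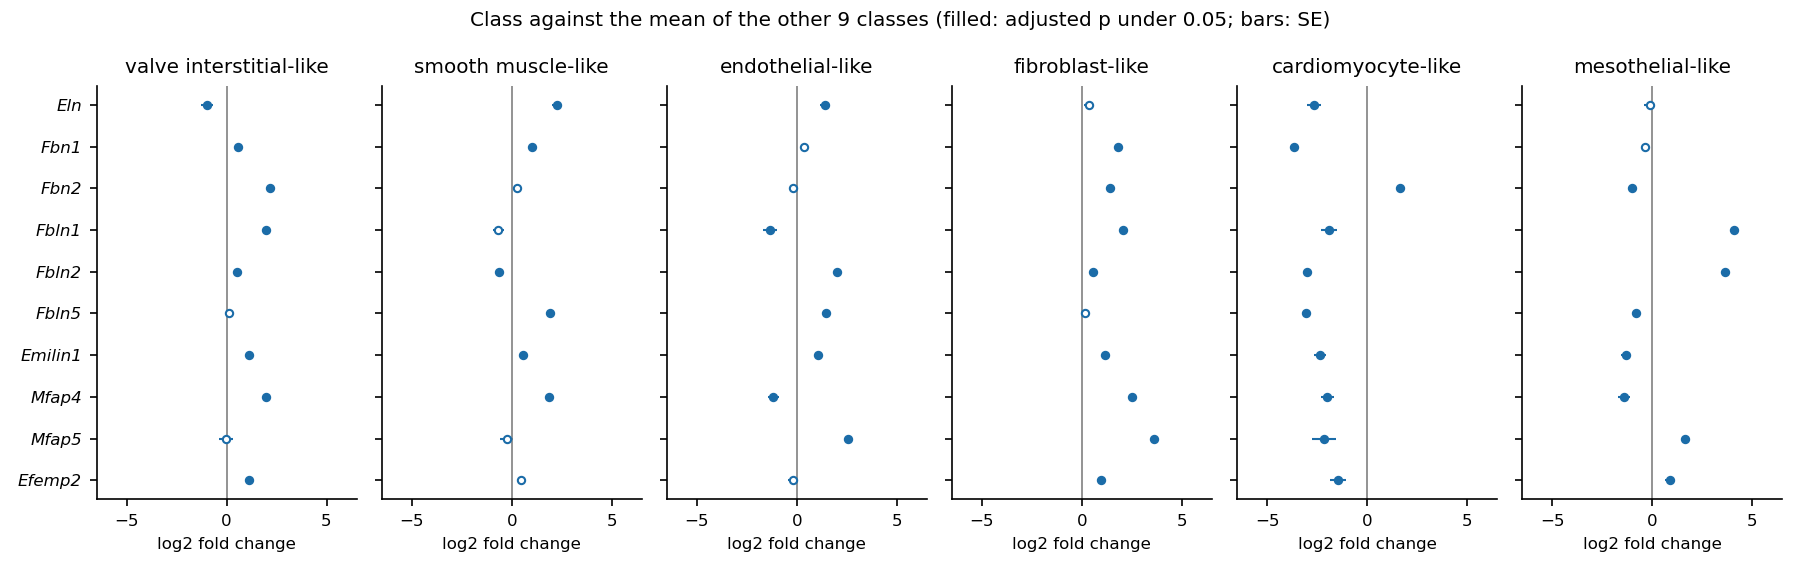
Log2 fold change (x axis) of each gene in 6 classes against the mean of the other 9 classes; points with SE bars, filled where the adjusted p was under 0.05. Cardiomyocyte-like nuclei have 9 genes to the left of 0 and Fbn2 to the right, and mesothelial-like nuclei have the largest values, for Fbln1 and Fbln2.

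Direct comparisons asked how VIC-like nuclei, named by markers after the resident cells of the leaflet, differed from other large classes. Against fibroblast-like nuclei, VIC-like nuclei had 1 gene higher and 4 lower, where 16.6% of all genes were called (7.82% and 8.76%). Fbn2 was higher by 0.67 ± 0.19 (edgeR adjusted p = 0.00793), and Mfap5 (-3.28 ± 0.17, edgeR adjusted p = 2.17e-19), Eln (-1.22 ± 0.37, edgeR adjusted p = 0.015), Fbn1 (-1.08 ± 0.20, edgeR adjusted p = 3.88e-05) and Mfap4 (-0.47 ± 0.14, edgeR adjusted p = 0.0154) were lower. This count rests on the settings: 2 genes, Fbn1 and Mfap5, were called without the pool block and 3 without pool 1, and Fbn2 missed the threshold without pool 1 (adjusted p = 0.0527), pool 2 (adjusted p = 0.0651) or the pool block (adjusted p = 0.0766). Fbln1 (-0.08 ± 0.14), Fbln2 (-0.04 ± 0.18), Fbln5 (-0.00 ± 0.22), Emilin1 (-0.04 ± 0.13) and Efemp2 (0.13 ± 0.20) were not called. Mfap4 lost the call under 10 of the 15 alternatives, among them RLE scaling (adjusted p = 0.102) and DESeq2 (adjusted p = 0.485). Eln lost it under 5, which were the fits without pool 3 (adjusted p = 0.16), without the pool block (adjusted p = 0.168) and at clustering resolution 0.5 (adjusted p = 0.127), and those with doublets kept (-0.61, adjusted p = 0.325) and without the mitochondrial limit (-0.61, adjusted p = 0.467).

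Against smooth muscle-like nuclei, VIC-like nuclei had 5 genes higher and 2 lower, where 29.3% of all genes were called (14.7% and 14.6%). Fbln1 was higher by 2.36 ± 0.17, Fbn2 by 1.70 ± 0.19 and Fbln2 by 1.04 ± 0.19, while Eln (-2.92 ± 0.39) and Fbln5 (-1.59 ± 0.22) were lower (edgeR adjusted p at most 1.41e-05). The call on Fbln2 was lost without the mitochondrial limit (0.31, adjusted p = 0.369). Efemp2 (0.59 ± 0.20, edgeR adjusted p = 0.0219) and Emilin1 (0.52 ± 0.13, edgeR adjusted p = 0.00162) were also called higher, and both lost the call without pool 1 and without the pool block, and under 8 and 6 of the 15 alternatives in all. Fbn1 (-0.40 ± 0.20) and Mfap4 (0.10 ± 0.14) were not called. Mfap5 was not called either (0.22 ± 0.22) and turned to -1.12 (adjusted p = 0.000174) without the mitochondrial limit and to -0.69 (adjusted p = 0.0122) when the cluster led by Igfbp2 was counted as smooth muscle-like.

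Against endothelial-like nuclei, VIC-like nuclei had 4 genes higher and 4 lower, where 37.9% of all genes were called (17.6% and 20.3%). Fbln1 (2.95 ± 0.16), Mfap4 (2.83 ± 0.17), Fbn2 (2.13 ± 0.19) and Efemp2 (1.17 ± 0.20) were higher, and Mfap5 (-2.33 ± 0.17), Eln (-2.16 ± 0.38), Fbln2 (-1.36 ± 0.18) and Fbln5 (-1.21 ± 0.22) were lower (edgeR adjusted p at most 1.35e-05). Fbn1 (0.20 ± 0.19) and Emilin1 (0.04 ± 0.12) were not called. Smooth muscle-like against fibroblast-like nuclei gave 2 genes higher, Eln (1.70 ± 0.37) and Fbln5 (1.59 ± 0.22), and 7 lower, where 26.4% of all genes were called (12.9% and 13.5%), led by Mfap5 (-3.50 ± 0.16) and Fbln1 (-2.44 ± 0.17), with edgeR adjusted p at most 0.000362 for these 4. Fbln2 (-1.08 ± 0.19), Fbn2 (-1.03 ± 0.19), Fbn1 (-0.68 ± 0.19), Mfap4 (-0.57 ± 0.14) and Emilin1 (-0.56 ± 0.13) were the other lower genes (edgeR adjusted p at most 0.00664). Efemp2 was the gene not called (-0.46 ± 0.21), and it was called lower under 3 of the 15 alternatives. Of the 7 lower genes, Mfap4 lost the call under 8 of the 15 alternatives, among them DESeq2 (adjusted p = 0.278), without pool 1 (adjusted p = 0.359), with doublets kept (-0.16, adjusted p = 0.695) and without the mitochondrial limit (-0.03, adjusted p = 0.944). Emilin1 lost it under 4, Fbn1 without pool 3 (adjusted p = 0.0714) and without the pool block (adjusted p = 0.0632), and Fbln2 without the mitochondrial limit (adjusted p = 0.246). These 4 comparisons share classes, so they are not independent of each other. The share of higher calls among all genes moved from 50.3% to 63.9% for VIC-like against smooth muscle-like and from 48.9% to 33.0% for smooth muscle-like against fibroblast-like nuclei with total-UMI scaling, and from 46.4% to 58.0% for VIC-like against endothelial-like nuclei with RLE scaling.

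Within classes, clusters differed more than some classes did. These are descriptions without a test, each cluster being named by its leading gene. Among endothelial-like clusters Eln was at 22660, 20219 and 17396 CPM in the Rtl4 cluster of 775 nuclei, above the smooth muscle-like mean, and at 4368, 4807 and 3463 CPM in the Grid1 cluster of 753 nuclei. The Rtl4 cluster also led in Fbln5, with 2204, 1870 and 1701 CPM, and had Fbln2 at 1263 CPM ± 235 and Mfap5 at 308 CPM ± 67.8. The Kcnc2 cluster of 425 nuclei had Mfap5 at a like level, 306 CPM ± 70.5, but Fbln5 at 158 CPM ± 30.5, so Mfap5 and Fbln5 did not go together there. Fbn2 was at 1559, 2059 and 1525 CPM in the Dlgap2 cluster of 251 nuclei, where its share of fibrillin UMIs was 81.4%, and at means of 79.0 to 211 CPM in the other 5 endothelial-like clusters of over 200 nuclei.

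Fibroblast-like nuclei held 2 clusters. The Tmeff2 cluster of 382 nuclei had Eln at 7589, 9439 and 7355 CPM and Mfap5 at 870, 942 and 431 CPM, with no pool overlapping the Abca8a cluster of 809 nuclei, at 3427, 2721 and 3141 CPM and 192, 173 and 129 CPM. Fbn2 went the other way, 576 CPM ± 90.3 against 888 CPM ± 83.5, and its share of fibrillin UMIs was 28.3% against 42.2%. Fbn1, at 1453 CPM ± 110 and 1214 CPM ± 22.8, differed less.

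VIC-like nuclei were mostly 2 clusters, led by Ctnna2 (981 nuclei) and Rmst (497 nuclei). Fbn2 was at 1586, 1451 and 1396 CPM in the first and 885, 889 and 963 CPM in the second, and Fbn1 at 724 CPM ± 67.7 and 427 CPM ± 51.8, so that the Fbn2 share was 67.1% and 68.2%. Fbln1 was higher in the second, 291, 320 and 169 CPM against 141, 129 and 92 CPM.

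Smooth muscle-like clusters differed in Eln, with 16745, 18911 and 14341 CPM in the Mylk4 cluster, 14411, 16898 and 14056 CPM in the Mtus2 cluster and 7268, 9645 and 5756 CPM in the Clca3a2 cluster. The last had the most Fbn1 of the 3, 971, 872 and 823 CPM. Among cardiomyocyte-like clusters Fbn2 was at 2194, 2028 and 1738 CPM in the Ryr3 cluster of 203 nuclei, above every VIC-like pool, and at 607, 474 and 524 CPM in the largest cluster of 1576 nuclei. The Fbn2 share was 95.1% and 96.0% in these.

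**Figure D4:**
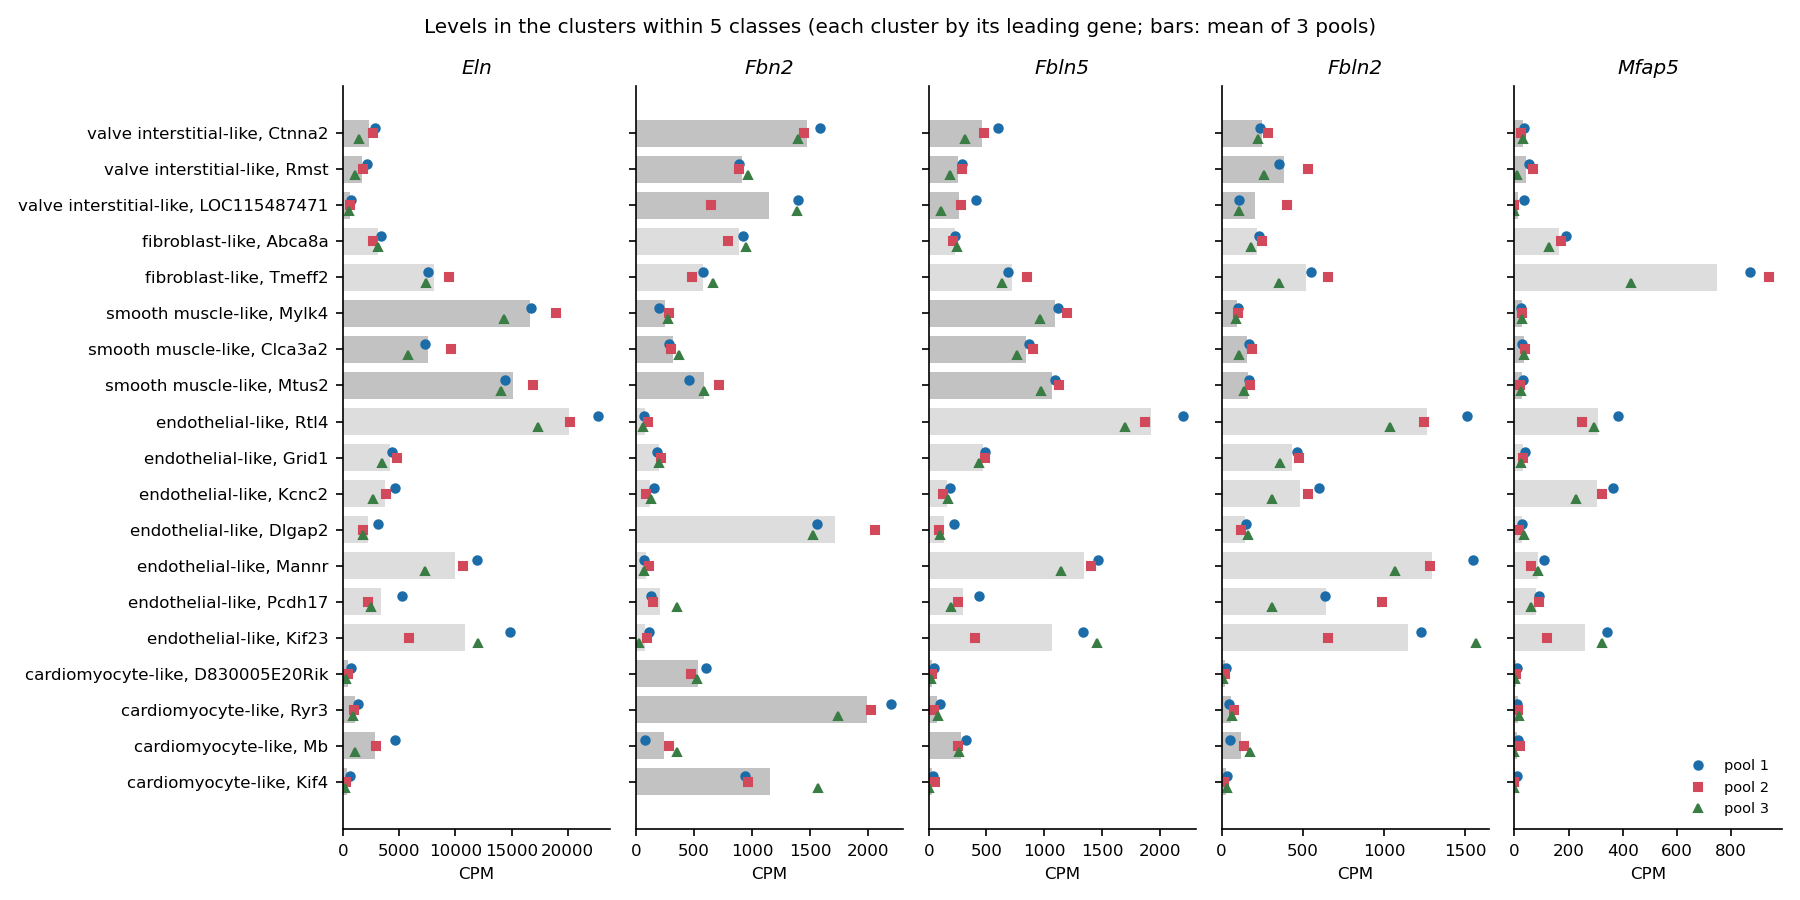
CPM of 5 genes in the clusters of 5 classes, each row a cluster with its leading gene, points for the 3 pools and bars for their mean. The Rtl4 endothelial-like cluster is highest in Eln and Fbln5, the Tmeff2 fibroblast-like cluster in Mfap5, and the Ryr3 cardiomyocyte-like and Dlgap2 endothelial-like clusters in Fbn2.

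The unnamed nuclei also carried these genes. The Igfbp2 cluster of 775 nuclei, of which 51 were from pool 3, had Eln at 17945, 14385 and 9235 CPM and Fbln5 at 891 CPM ± 344. It held smooth muscle markers but was led by striated muscle genes, so it was given no name. The Neil3 cluster of 503 nuclei had Eln at 11894, 10170 and 6984 CPM.

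Other genes of the elastic fibre pathway were counted from a list of 43: microfibril partners, crosslinking enzymes, folding factors, integrins and elastases. In all, 36 were tested in the class comparisons. Their median log2 difference was 0.63 in VIC-like, 0.79 in smooth muscle-like, 0.27 in endothelial-like, 0.80 in fibroblast-like, 0.74 in mesothelial-like and -1.15 in cardiomyocyte-like nuclei, where all genes had 0.25, 0.29, 0.27, 0.26, 0.30 and 0.21. The counts of called partners that follow stand beside 27.0%, 34.6%, 30.1%, 22.7%, 45.5% and 49.5% of all genes called in these classes. VIC-like nuclei had 17 higher and 5 lower, among them Ltbp2, a fibrillin-binding latent TGF-beta binding protein (2.45 ± 0.14, 203 CPM ± 19.8), Adamtsl3 (2.69 ± 0.16, 220 CPM ± 14.9) and the gelatinase Mmp2 (2.01 ± 0.11, 276 CPM ± 104). Adamtsl2 (2.47 ± 0.60) and Ctsk, the gene of cathepsin K (2.04 ± 0.35), were also among the 5 with the largest rise. Thsd4, also known as ADAMTSL6, which promotes fibrillin-1 microfibril assembly, was lower at -2.85 ± 0.28, with 78.6 CPM ± 29.7. It was followed by Emilin2 (-1.77 ± 0.56), Adamts17 (-1.64 ± 0.21) and the integrin gene Itgb3 (-1.49 ± 0.31). Smooth muscle-like nuclei had 17 higher and 4 lower, with Thsd4 at 2192 CPM ± 146 and Itga8, an integrin chain, at 2366 CPM ± 230 (2.72 ± 0.17 and 3.70 ± 0.20). Itgb3 (2.15 ± 0.16), Adamtsl5 (1.98 ± 0.30) and Ltbp2 (1.88 ± 0.15) followed, and the 4 lower partners were Emilin2 (-2.42 ± 0.59), Hmcn1 (-2.22 ± 0.29), Efemp1 (-1.89 ± 0.53) and Loxl2 (-1.58 ± 0.53). The edgeR adjusted p of these differences was at most 0.0176.

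Endothelial-like nuclei had 14 partners higher and 9 lower, with Hmcn1, the large fibulin-family protein hemicentin-1, at 3884 CPM ± 395 (3.20 ± 0.18) and the lysyl oxidase-like genes Loxl3 (-2.03 ± 0.31) and Loxl1 (-2.03 ± 0.20) lower. Ctsk (2.76 ± 0.25), Slc2a10 (1.60 ± 0.52), the protease gene Furin (1.47 ± 0.32) and the integrin gene Itga5 (1.42 ± 0.10) were the next higher, and Itga8 (-1.51 ± 0.29), Itgb3 (-1.29 ± 0.26) and Emilin2 (-1.28 ± 0.46) the next lower. Fibroblast-like nuclei had 21 higher, the first 5 being Adamtsl2 (3.65 ± 0.43), Adamtsl5 (2.53 ± 0.27), Adamtsl3 (1.98 ± 0.18), Ctsk (1.68 ± 0.42) and Mmp2 (1.66 ± 0.12), and 1 lower, Ltbp1 (-0.50 ± 0.16). Mesothelial-like nuclei had 17 higher and 6 lower, with Efemp1 (fibulin-3) at 841 CPM ± 58.1, where the next class, VIC-like nuclei, had 19.4 CPM ± 1.37. The crosslinking enzymes Lox (305 CPM ± 60.7) and Loxl2 (223 CPM ± 64.9) were higher there by 2.40 ± 0.12 and 3.21 ± 0.15. Efemp1 itself was higher by 7.38 ± 0.11, Glb1 by 2.20 ± 0.25 and Adamtsl5 by 2.06 ± 0.34, while Itga8 (-3.58 ± 0.41), Itga5 (-1.26 ± 0.27), Adamts6 (-1.13 ± 0.21), Adamts10 (-0.95 ± 0.19) and Ltbp1 (-0.51 ± 0.17) were lower. Cardiomyocyte-like nuclei had 8 higher and 18 lower, with Emilin2 higher by 4.21 ± 0.19 at 69.4 CPM ± 2.18. Adamtsl2 (3.51 ± 0.42), Adamtsl5 (2.19 ± 0.28), Adamts6 (2.05 ± 0.15) and Hmcn1 (1.32 ± 0.21) were the next higher there, and Adamts10 (-3.57 ± 0.25), Itga8 (-3.35 ± 0.36), Loxl3 (-3.35 ± 0.41), Ltbp4 (-3.33 ± 0.22) and Itgb3 (-3.17 ± 0.39) the 5 lowest. The edgeR adjusted p was at most 0.0319 for each of these differences.

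In the direct comparisons the partners were split 8 higher and 10 lower for VIC-like against fibroblast-like nuclei, 14 and 8 against smooth muscle-like and 17 and 8 against endothelial-like nuclei, and 8 and 11 for smooth muscle-like against fibroblast-like nuclei, where 16.6%, 29.3%, 37.9% and 26.4% of all genes were called. Against fibroblast-like nuclei Ltbp2 (1.28), Ltbp3 (1.11), Ltbp1 (0.78), Loxl2 (0.72) and Adamtsl3 (0.64) were the highest in VIC-like nuclei and Adamts17 (-2.55), Thsd4 (-2.41), Itgb3 (-2.28), Adamtsl5 (-2.20) and Emilin2 (-1.92) the lowest. Against smooth muscle-like nuclei Loxl2 (3.21), Efemp1 (2.68), Ctsk (2.26), Mmp2 (1.95) and Hmcn1 (1.86) were the highest, and Thsd4 (-5.01), Itgb3 (-3.27), Itga8 (-3.25), Adamts17 (-2.52) and Lox (-1.74) the lowest. Against endothelial-like nuclei Adamtsl3 (3.39), Ltbp2 (3.30), Loxl1 (3.06), Loxl2 (2.64) and Loxl3 (2.15) were the highest, and Hmcn1 (-3.01), Lox (-1.54), Thsd4 (-1.53), Adamts17 (-1.30) and Itga5 (-1.12) the lowest. Lox was at 48.9 CPM ± 16.9 in VIC-like nuclei. In smooth muscle-like against fibroblast-like nuclei Thsd4 (2.60), Itga8 (2.48), Ltbp1 (1.71), Itgb3 (0.99) and Adamts6 (0.79) were the highest, and Adamtsl2 (-2.78), Emilin2 (-2.51), Loxl2 (-2.49), Hmcn1 (-2.03) and Ctsk (-1.93) the lowest. These are log2 differences with an edgeR adjusted p of at most 0.00837.

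Of the 45 pairs among the 10 genes, Eln and Fbln5 were the most alike over the 30 libraries of pool and class, with a Pearson r of 0.90 between log2 CPM values, and each was the gene most like the other among all tested. Mfap4 and Efemp2 had r = 0.83. Fbn2 was near 0 with Eln (r = -0.06), and the genes most like it were Rgs6 (r = 0.92) and Dpy19l2 (r = 0.90). After Fbln5, Eln was most like Hotairm1 (r = 0.85), and after Eln, Fbln5 was most like Gxylt2 (r = 0.88). Fbln2 was most like Ifitm2 and Mfap2, a microfibril gene of the partner list (both r = 0.94), Fbln1 most like Col6a1 (r = 0.92) and Pcolce (r = 0.87), and Fbn1 most like Glipr2 (r = 0.94) and LOC118567336 (r = 0.92). Emilin1 was most like Fam102b and Mmp2 (both r = 0.89), Mfap4 most like Chsy3 (r = 0.93) and Arhgef40 (r = 0.92), Mfap5 most like Lpar4 and Lsamp (both r = 0.85), and Efemp2 most like Slc39a6 and Kdelr2 (both r = 0.93). These libraries share pools, classes and depth, so r is a description.

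Dividing nuclei were set against the other nuclei of their class that held 0 UMIs over 12 cell cycle genes after thinning. A nucleus counted as cycling with at least 2 such UMIs, and nuclei with exactly 1 were in neither group. edgeR called 0 of the 10 genes in smooth muscle-like, VIC-like and fibroblast-like nuclei, where 1.66%, 3.03% and 1.90% of all tested genes were called. At an unadjusted p under 0.05 there were 0, 1 and 4 genes, and DESeq2 also called 0 in each class. Without the filter on low counts, 1 gene was called in VIC-like nuclei, Eln at -0.54 (adjusted p = 0.0061), and 3 in fibroblast-like nuclei, Fbn1, Fbln1 and Mfap5. The cycling nuclei of the 3 pools numbered 69, 11 and 41 in smooth muscle-like, 57, 22 and 33 in VIC-like and 37, 30 and 28 in fibroblast-like nuclei. The unnamed Neil3 cluster of 503 nuclei, with cell division genes such as Kif4, Ndc80 and Cep55 among its top genes, was in none of these classes. The cycling comparisons therefore do not cover its nuclei. In fibroblast-like nuclei Fbn1 was at 1133, 946 and 966 CPM in cycling and 1325, 1240 and 1349 CPM in nuclei with 0 such UMIs, lower in every pool, with a difference of -0.35 ± 0.13 (edgeR adjusted p = 0.29). Fbln1 was at 144, 176 and 54.8 CPM against 224, 221 and 150 CPM, a difference of -0.68 ± 0.23 (edgeR adjusted p = 0.242). In VIC-like nuclei Mfap4 was at -0.48 ± 0.18 (edgeR adjusted p = 0.266). The other differences in fibroblast-like nuclei were -0.51 for Mfap5, -0.33 for Fbn2, -0.30 for Fbln2, -0.12 for Mfap4, -0.06 for Efemp2, 0.01 for Eln, 0.26 for Fbln5 and 0.43 for Emilin1. In VIC-like nuclei they ran from -0.43 for Eln, -0.36 for Fbln1, -0.30 for Fbln5 and -0.23 for Fbln2 over Emilin1, Mfap5, Fbn2 and Fbn1, at -0.18 to -0.01, to 0.48 for Efemp2. In smooth muscle-like nuclei Efemp2 was at -0.75, Fbln1 at -0.65 and Mfap5 at 0.56, and Emilin1, Mfap4, Fbn2, Fbln5, Eln, Fbln2 and Fbn1 lay between -0.31 and 0.01. Of the partners, Hmcn1 was higher in cycling smooth muscle-like nuclei (1.41 ± 0.19, edgeR adjusted p = 9.31e-10) and Mmp2 lower in cycling VIC-like nuclei (-0.81 ± 0.18, edgeR adjusted p = 0.0236).

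Pool 3 stood apart for most of these genes. Eln, Fbln1, Fbln2 and Fbln5 were lowest in pool 3 in all 6 large classes, and Emilin1, Mfap4, Mfap5 and Efemp2 in 5 of the 6. The median ratio of pool 3 to the mean of pools 1 and 2 over the classes was 0.717 for Eln, 0.640 for Fbln1, 0.677 for Fbln2, 0.781 for Fbln5, 0.629 for Emilin1, 0.528 for Mfap4, 0.555 for Mfap5 and 0.591 for Efemp2. The fibrillins did not share this, at 0.987 for Fbn1 and 1.07 for Fbn2. Over all genes with at least 10 UMIs in every pool, the median ratio was between 0.951 and 1.05 in the 6 classes, and 34.1% to 45.3% of genes were lowest in pool 3. Pool 3 also had the lowest share of ribosomal protein UMIs, 1.20% against 2.07% and 2.45%, and the lowest median of mitochondrial UMIs, 0.464% against 0.745% and 1.11%. The part of these in the lower levels was not tested, and the pool block in the fit takes up a shift common to all classes only.

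**Figure D5:**
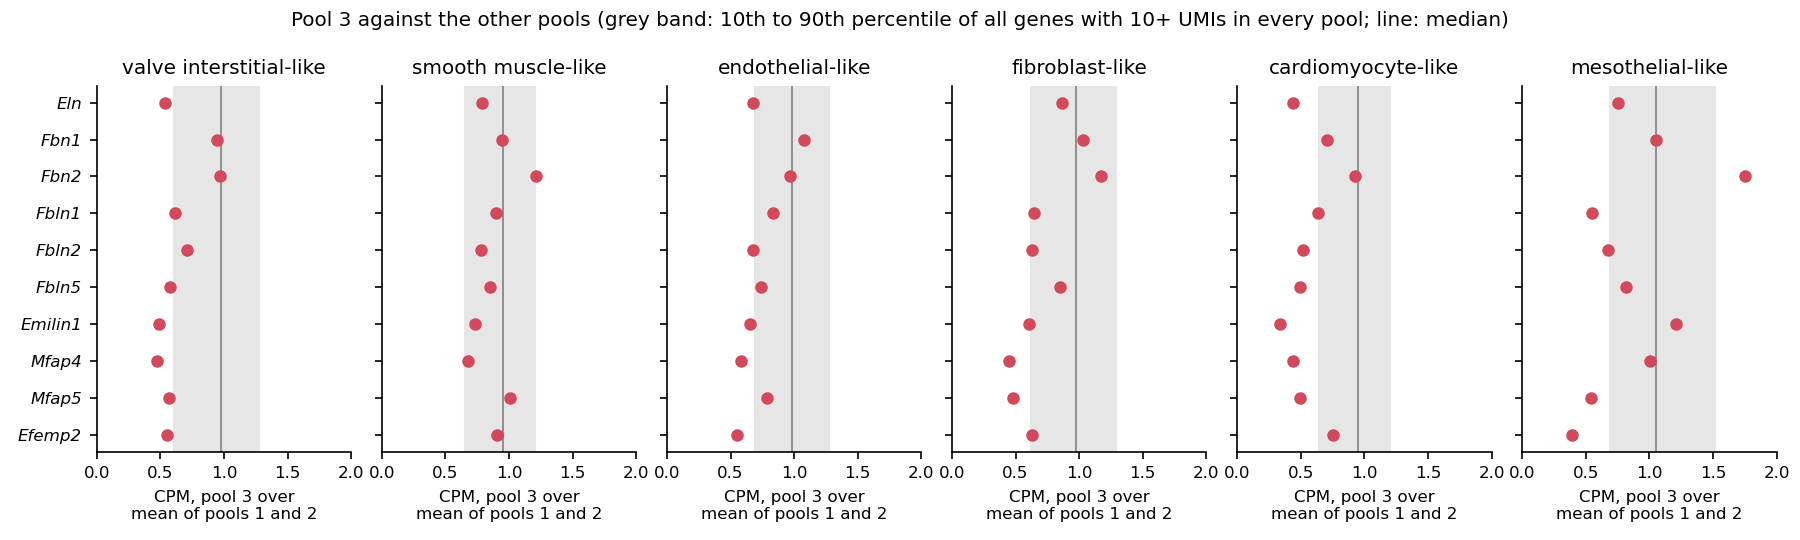
Ratio of CPM in pool 3 to the mean of pools 1 and 2 (x axis) for each gene in 6 classes; the grey band spans the 10th to 90th percentile of all genes with at least 10 UMIs in every pool and the line is their median. Fbn1 and Fbn2 lie near the line in most classes, and most of the other genes lie to its left.

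Overlapping genes had few UMIs. Gm30003, which overlaps Eln in RefSeq of GRCm38.p6, had 569 UMIs beside 467199 for Eln, and Gm41741, which overlaps Fbn2, had 307 beside 34997. Whether the counting used strand is not given in the sources used here.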

How the data were processed

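The deposited files hold counts of unique molecular identifiers (UMIs) per gene and nucleus, as the authors deposited them, for 3 pools. The submitters' processing notes name Cell Ranger 7.0.1 and 7.1.0 and the build GRCm39, and how introns and strand were treated is not given in the sources used here. Nuclei with at least 1000 UMIs and at most 5% mitochondrial UMIs were kept. Scrublet's automatic threshold marked 0 nuclei, so the nuclei with the top scores, 0.8% per 1000 nuclei, were left out as doublets instead. Nuclei were clustered with scanpy 1.11.5 and leidenalg 0.10.2 at resolution 1, without the 10 genes, their partners, cell cycle, sex-linked and mitochondrial genes. A cluster was named where at least 3 markers, and no fewer than 1 in 3 of its list, marked it, a rule settled after the clusters were seen, and a cluster stayed unnamed where markers of another class outnumbered its own among its top 10 genes, or where at least 3 of these were striated muscle genes and the call was not cardiomyocyte-like.

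Counts were summed per pool and class and tested with edgeR 4.0.16 in R 4.3.3 (TMM scaling, filterByExpr, quasi-likelihood test, Benjamini-Hochberg over all genes). Pool entered as a block, since the classes of each pool share its library. The members and lists were chosen with earlier results of these data known. All 10 genes are named in each comparison, and of the partners up to 5 with the largest called change in each direction, of the same sign in all 3 pools. Alternatives were DESeq2 1.42.0, other scalings, filters, clusterings and leaving out each pool. Shares of nuclei used nuclei thinned to 1000 UMIs. The chromatin part of the assay was not analysed here.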

Additional observations from a re-analysis of the deposited data

Results flagged for a closer look

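Emilin1 in cycling nuclei, set against nuclei with 0 cell cycle UMIs, was at 0.43 on the log2 scale in fibroblast-like nuclei, higher in each of the 3 pools, and at -0.18 in valve interstitial-like nuclei, lower in each of the 3 pools. Efemp2 was at 0.48 in valve interstitial-like nuclei, higher in each pool, and at -0.75 in smooth muscle-like nuclei, lower in each pool. In cycling valve interstitial-like nuclei its levels were 66.8, 85.8 and 32.2 CPM, from 57, 22 and 33 nuclei. In cycling smooth muscle-like nuclei they were 22.3, 0 and 11.4 CPM, from 69, 11 and 41 nuclei, with no Efemp2 UMI in pool 2. All of these are low counts. These results are given because all pools of one class moved one way and all pools of the other class the opposite way. The difference between the classes was not tested, and none of the 4 values passed the threshold by itself.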

How the results depend on the processing

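Of 1730 values of single genes under the alternatives, 1604 stayed on their side of the threshold, 82 lost the call, 40 gained one and 4 reversed. A change of sign was counted as reversed only where at least 1 of the 2 fits called the gene. Sign changes of genes called in neither fit are among the 1604. The reversed values were Mfap5 in valve interstitial-like against smooth muscle-like nuclei, at -1.12 without the mitochondrial limit and -0.69 with the Igfbp2 cluster counted as smooth muscle-like, Mfap5 in smooth muscle-like nuclei against the others, at 0.65 with that cluster, and Fbn2 there, at -0.93 with classes of at least 100 nuclei per pool. The cause was not tested. Of the Fbn2 shares of fibrillin UMIs in 6 classes, 3 moved beyond 1 SD without the mitochondrial limit and 2 each with nuclei of at least 500 UMIs, with doublets kept and at clustering resolution 0.5, that of endothelial-like nuclei from 35.2% to between 38.5% and 39.5% under these settings except with doublets kept. Levels also moved. Of 60 levels in the 6 large classes, 19 moved beyond 1 SD with nuclei of at least 500 UMIs, 21 with doublets kept, 19 without the mitochondrial limit and 15 at clustering resolution 0.5. All levels that moved by over 1.5 times rose, those of 9 genes other than Fbn2 in cardiomyocyte-like nuclei by 1.5 to 3.8 times under these 4 settings, and in smooth muscle-like nuclei without the mitochondrial limit Fbln1 to 79.6, Mfap5 to 74.4 and Fbln2 to 240.9 CPM.

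The count of 5 genes for valve interstitial-like set against fibroblast-like nuclei fell to 2 with no replicate block and to 3 with doublets kept, with no mitochondrial limit and at clustering resolution 0.5, and was 3 to 4 when 1 pool was left out. The cycling counts of 0 became 1 in valve interstitial-like and 3 in fibroblast-like nuclei with no filter on low counts, and 1 in fibroblast-like nuclei at 1 or more cell cycle UMIs. The Igfbp2 cluster, total-UMI and erythroid alternatives were chosen after seeing the data. Depth limits Efemp2 most, and the classes of under 100 nuclei per pool.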
